A study of Mus musculus with 8 samples.

Results

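The chromatin around 10 mouse genes of lipoprotein assembly was examined in livers of fasted mice: the apolipoprotein genes Apoa1, Apoa2, Apoa4, Apoa5, Apob, Apoc1, Apoc3, Apoe and Apoh, and Mttp. ATAC-seq, which cuts and tags open DNA with a transposase, gave the accessibility, and a peak marks a stretch of open chromatin. A consensus region belonged to the set when the nearest protein-coding gene on mm10, within 100 kb of the gene's span, was one of the 10, and 57 of 49587 regions did. Of these, 3 lay equally near to a gene outside the set. Regions are numbered by position along the chromosome for each gene, and all coordinates are mm10.

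The 8 libraries came from male C57BL/6 mice, 9 weeks old, all fasted for 24 h, with 2 libraries for each of 4 genotypes: WT, Cpt2 L-/- (a liver knockout), Ppara -/-, and Cpt2 L-/- ; Ppara -/- (the double knockout). The Ppara deletion carries no liver mark in the labels. The Cre driver of the liver knockout is not given in the labels, nor is it said whether both libraries of a genotype came from separate mice, so their spread may be technical. WT and Cpt2 knockout together are called Ppara-intact, and the other genotypes, without Ppara, are called Ppara-null. The title of the series concerns Ppara and fatty acid oxidation as joint regulators of liver transcription. Without the carnitine palmitoyltransferase made from Cpt2, mitochondria cannot oxidise long-chain fatty acids. PPARA is a nuclear receptor with fatty acid ligands and is active in the fasted liver.

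Hepatocytes export triglyceride in very low density lipoprotein. The large protein apolipoprotein B is loaded with lipid in the endoplasmic reticulum by the microsomal triglyceride transfer protein, encoded by Mttp. Apolipoproteins A-I and A-II are the main proteins of high density lipoprotein, and the smaller exchangeable apolipoproteins move between particles and govern lipolysis and uptake by receptors. Several of their genes lie in clusters, and Apoa1, Apoc3, Apoa4 and Apoa5 are neighbours on chromosome 9.

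The annotated starts of 8 of the 10 genes were represented by 12 RefSeq windows (GRCm38.p6, the assembly of mm10), each of 300 bases, from 250 before to 50 after a start. Consensus regions overlapped a window at 7 genes, in 8 regions. The windows of 5 of these genes are shown. A called region covers each start, and the calls or their folds there differed between libraries in the ways given further on. This also holds for Apoa4 and for a start of Apoe, whose windows are not shown. They lie at chr9:46228380-46228679 (Apoa1), chr1:171224804-171225103 (Apoa2, the second of its 2 starts), chr9:46268358-46268657 (Apoa5, the first of its 2 starts), chr12:7977427-7977726 (Apob) and chr11:108395047-108395346 (Apoh), all on the plus strand, and are written 5′ to 3′.
Apoa1: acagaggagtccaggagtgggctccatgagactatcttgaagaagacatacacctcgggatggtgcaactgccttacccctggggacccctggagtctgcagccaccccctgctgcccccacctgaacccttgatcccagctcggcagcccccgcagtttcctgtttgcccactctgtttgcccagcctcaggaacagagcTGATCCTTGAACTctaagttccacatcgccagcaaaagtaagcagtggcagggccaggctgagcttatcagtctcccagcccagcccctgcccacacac
Apoa2: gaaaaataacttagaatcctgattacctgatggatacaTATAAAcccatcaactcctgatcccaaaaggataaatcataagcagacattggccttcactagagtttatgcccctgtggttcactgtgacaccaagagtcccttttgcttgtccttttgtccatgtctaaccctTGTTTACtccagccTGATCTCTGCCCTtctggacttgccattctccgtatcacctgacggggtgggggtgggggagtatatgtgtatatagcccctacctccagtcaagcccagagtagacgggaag
Apoa5: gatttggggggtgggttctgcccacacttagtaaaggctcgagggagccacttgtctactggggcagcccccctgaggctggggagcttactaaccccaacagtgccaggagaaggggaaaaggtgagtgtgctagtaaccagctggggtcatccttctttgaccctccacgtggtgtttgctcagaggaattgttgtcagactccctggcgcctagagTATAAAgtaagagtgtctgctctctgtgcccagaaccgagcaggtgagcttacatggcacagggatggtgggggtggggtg
Apob: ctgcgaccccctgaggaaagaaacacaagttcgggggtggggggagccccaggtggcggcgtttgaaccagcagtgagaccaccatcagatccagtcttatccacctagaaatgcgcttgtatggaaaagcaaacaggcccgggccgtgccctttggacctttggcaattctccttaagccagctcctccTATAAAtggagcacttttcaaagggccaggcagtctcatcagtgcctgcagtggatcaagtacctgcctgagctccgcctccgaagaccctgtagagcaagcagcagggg
Apoh: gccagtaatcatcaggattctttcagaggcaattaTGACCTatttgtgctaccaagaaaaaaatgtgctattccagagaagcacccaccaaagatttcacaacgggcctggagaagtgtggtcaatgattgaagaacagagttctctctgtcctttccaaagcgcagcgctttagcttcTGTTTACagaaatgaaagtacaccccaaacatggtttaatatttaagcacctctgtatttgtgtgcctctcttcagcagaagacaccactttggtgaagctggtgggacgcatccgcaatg
Capitals mark matches, on either strand, to the nuclear receptor half-site AGGTCA, to TATAAA, to the forkhead core TGTTTAC, or to a DR1, 2 half-sites in the same direction 1 base apart, with up to 3 mismatches in the half-sites. DR1 is the arrangement to which PPARA with its partner RXR, and also HNF4A, are known to bind. The Apoa2 window held the forkhead core at bases -77 to -71 and a DR1 match with 2 mismatches at -63 to -51, counted from the start as 0, and TATAAA at -212 to -207. In the Apoa5 window TATAAA lay at -31 to -26, and in the Apob window at -60 to -55. The Apoa1 window held a DR1 match with 3 mismatches at -49 to -37. The Apoh window held the half-site at -215 to -210 and the forkhead core at -71 to -65. The Apoa4 window held none of these letters. Of the 12 windows of the set, some of which overlap, 2 held the half-site, 5 TATAAA and 3 the forkhead core. A DR1 match with up to 2 mismatches was in 1 of them, and one with up to 3 in 4, at Apoa1, Apoa2 and Apoe. Of 32851 RefSeq windows of the same length, 16.3% held the half-site, 13.6% TATAAA, 3.65% the forkhead core, 3.86% a DR1 match with up to 2 mismatches and 24.6% one with up to 3. Such matches describe the letters and do not show binding.

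Ppara-intact lists held 28733 to 39296 peaks and Ppara-null lists 18132 to 22715, called separately per library, with no read total given. The peak names carry other library numbers in the Ppara-null libraries (6831 to 6834) than in the Ppara-intact ones (441, 443, 446 and 4717). If these mark a batch, it cannot be told apart from Ppara status. All 10 hepatocyte marker genes had a region, and 9 of them had a region called in all 8 libraries. Of the hepatocyte markers' 86 regions, 59.3% to 72.1% were called per Ppara-intact and 46.5% to 54.7% per Ppara-null library, against 56.9% to 77.7% and 35.5% to 44.5% of all regions. For endothelial markers (37 regions, 5 of 5 genes) the shares were 32.4% to 70.3% and 13.5% to 18.9%, for stellate markers (10 regions, 4 of 5 genes) 40% to 70% and 0% to 20%, and for cholangiocyte markers (13 regions, 3 of 5 genes) 46.2% to 84.6% and 0% to 15.4%. Intestinal markers (9 regions, 3 of 5 genes) were at 55.6% to 100% and 33.3% to 44.4%. Kupffer cell and lymphocyte markers had 1 region each, called in WT 2 alone and in 6 libraries, and Adgre1, Vsig4, Marco, Cd5l, Cd3e, Cd79a and Nkg7 were among those with none. The part of cell composition in the results was not tested. In bulk tissue, a site open in fewer cells and a site less open in each cell cannot be told apart.

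Of the 57 regions 10, at 7 genes, were called in all 8 libraries, or 17.5%, against a background of 22.7% of all consensus regions. Another 13, or 22.8%, were called in 7 libraries, against 8.10% of all. WT 1 and 2 called 37 and 40 of the 57 regions, and Cpt2 knockout 1 and 2 called 46 and 42. Ppara knockout 1 and 2 called 30 and 18, and double knockout 1 and 2 called 32 and 26. Every Ppara-intact library was above every Ppara-null one, with means of 41.2 ± 3.78 and 26.5 ± 6.19 regions (SD, n = 4 each), and Ppara knockout 2 was the lowest. As shares, 64.9% to 80.7% of these regions and 56.9% to 77.7% of all regions were called in the Ppara-intact libraries, and 31.6% to 56.1% against 35.5% to 44.5% in the Ppara-null ones. When each list was cut to its 18132 strongest peaks the order of the means turned. They were 20 of the 57 regions in the Ppara-intact and 24.2 in the Ppara-null libraries. Ppara knockout 2, at 18, was still below every Ppara-intact library, at 19 to 22. Of the 57 regions 39 were called in any cut list. Of the 30017 consensus regions called in any cut list, 59.98% to 60.1% were called per Ppara-intact and 58.35% to 59.52% per Ppara-null library. The higher number of calls with Ppara intact was thus not seen in lists of equal length.

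**Figure D1:**
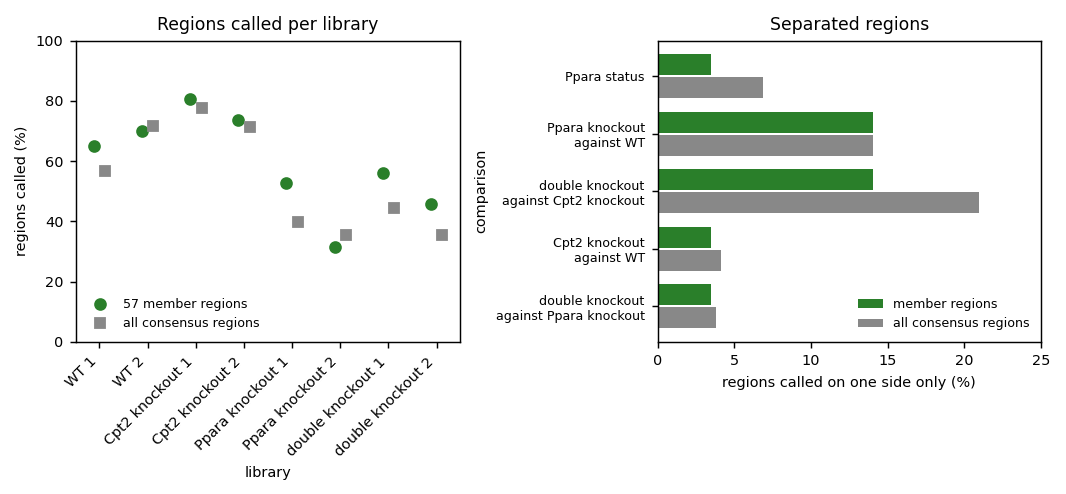
Left, percent of regions called in each of the 8 libraries, for the 57 regions of the lipoprotein genes (circles) and for all 49587 consensus regions (squares). Right, percent of regions called in every library of one side and in none of the other, for 5 comparisons; by Ppara status it was 3.51% of the lipoprotein gene regions and 6.89% of all.

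Only 2 of the 57 regions separated completely by Ppara status, Apob region 4 and Mttp region 6, both called in all 4 Ppara-intact and in no Ppara-null library. Over all consensus regions, 6.82% were called in this way, so the share of 3.51% at the lipoprotein genes was not above the background. No region was called in all 4 Ppara-null libraries alone, for which the background was 0.0686%. Without Cpt2 knockout 2 the count by Ppara status was 6, or 10.5% against a background of 8.34%, so the order of the shares rests on that library. With peaks limited to a −log10 q of 20 or more, Apoa2 region 4 and Apoa5 region 4 separated in place of these (3.51%, background 9.02% in either direction). In lists of equal length neither Apob region 4 nor Mttp region 6 separated, and Apob region 11 was called in the Ppara-null libraries alone (1.75%, background 1.32% in either direction). Of the 29 regions called in all 4 Ppara-intact libraries, 10 were called in all 4 Ppara-null ones, 12 in 3, 3 in 2, 2 in 1 and 2 in none. Over all 24051 regions so called, 46.8% were called in all 4 Ppara-null libraries, 15.8% in 3 and 14.1% in none. At the lipoprotein genes the largest group was thus the one with 1 call missing. Of the 13 regions called in 7 libraries, 7 lacked only the call in Ppara knockout 2, 3 that in double knockout 2, and 1 each that in WT 1, Ppara knockout 1 and double knockout 1. Ppara knockout 2 alone lacked 3.20% of all regions, against 12.3% of these.

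The pairs of genotypes share libraries and are given side by side. Between Ppara knockout and WT, 8 regions were called in both WT and neither Ppara knockout library (14.0%, background 13.6%) and none the reverse (background 0.46%; either direction 14.1%). The 8 were Apoa2 region 1, Apoh region 3, Apob regions 1, 4 and 8, Mttp region 6 and Apoc1 regions 2 and 6. Between double knockout and Cpt2 knockout, 7 were called only in Cpt2 knockout (12.3%, background 20.4%) and 1, Mttp region 4, only in double knockout (background 0.597%; either direction 21%). The 7 were Apoh region 1, Apob regions 4, 15 and 17, Mttp regions 3 and 6 and Apoc1 region 5. Between Cpt2 knockout and WT, Apob region 17 and Mttp region 3 were called only in Cpt2 knockout (3.51%, background 3.63%) and none only in WT (background 0.512%; either direction 4.14%). Between double knockout and Ppara knockout, Apob region 1 and Mttp region 4 were called only in double knockout (3.51%, background 2.33%) and none only in Ppara knockout (background 1.45%; either direction 3.79%). With all libraries, most of these shares lay near or below the background, and the calls found only in double knockout, which were above it, rest on 1 and 2 regions. Totals and shares moved when single libraries were left out. Ppara knockout against WT gave 21 regions without Ppara knockout 1, or 36.8% against a background of 23.1% in either direction, and 12 without any other of its 4 libraries, or 21.1% against 19% to 30.5%. Double knockout against Ppara knockout gave 12 without Ppara knockout 1, or 21.1% against 11.1%, and 6, 7 and 5 without Ppara knockout 2, double knockout 1 and double knockout 2, or 10.5%, 12.3% and 8.77% against 9.23%, 9.45% and 10.6%. Without Ppara knockout 1 both comparisons rest on Ppara knockout 2, which had the fewest calls at these genes. Double knockout against Cpt2 knockout gave 14 without Cpt2 knockout 1 and 17 without Cpt2 knockout 2 or double knockout 1, or 24.6% to 29.8% against 29.5% to 35.5%. Cpt2 knockout against WT gave 11 without Cpt2 knockout 1, or 19.3% against 12.6%, 6 without Cpt2 knockout 2 or WT 2, or 10.5% against 12.9% and 14.6%, and 4 without WT 1, or 7.02% against 10.4%. In lists of equal length the direction turned for all pairs but double knockout against Ppara knockout, which gave 1 region in each direction (3.51%, background 3.86% in either direction). With 2 libraries against 2 no exact test can go below 0.33, so none was made.

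**Figure D2:**
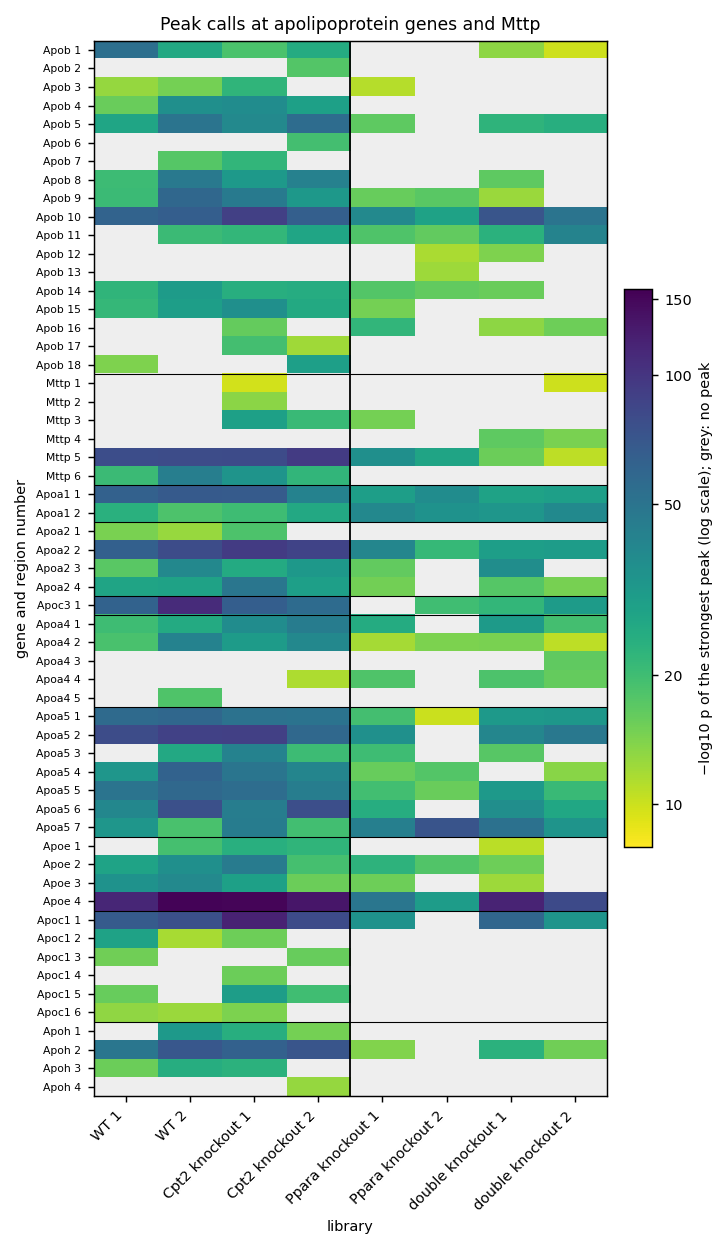
Peak calls at the 57 regions (rows, grouped by gene and numbered by position) in 8 libraries (columns); colour gives the deposited −log10 p of the strongest peak on a log scale, and grey a region with no peak. The vertical line divides Ppara-intact from Ppara-null libraries; 10 rows are filled in all 8 columns, and the rows of Apoc1 and Apoh are mostly grey to the right of the line. Each Ppara-null library called 35.5% to 44.5% of all consensus regions.

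Apob, at chr12:7977629-8016839, encodes the structural protein of very low density lipoprotein and had the most regions, 18, of which 13 lay outside the gene. For each peak the authors deposited a fold, the ratio of the pileup of tags at the summit to the local background, and a −log10 p, both as MACS2 gives them for that library, and no test was made on these between libraries. Apob region 10 (chr12:7978329-7978819), just inside the gene, was called in all 8 libraries. Its fold was 8.14 and 7.80 in WT, 9.07 and 7.61 in Cpt2 knockout, 6.40 and 5.11 in Ppara knockout, and 8.99 and 7.84 in double knockout. The sides overlapped, with both Ppara knockout libraries lowest and double knockout 1 second highest. Region 9 (chr12:7977468-7977924), which holds the start shown in the Apob window, had a fold of 4.51 and 7.56 in WT, 6.28 and 5.23 in Cpt2 knockout, 4.02 and 3.99 in Ppara knockout and 3.55 in double knockout 1, with no peak in double knockout 2. It was lower in each Ppara-null library that called it than in any Ppara-intact one.

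Upstream of Apob lay the region that separated by Ppara status, region 4 (chr12:7910504-7910863), 66765 bp from the gene. Its −log10 p was 15.7 and 35.9 in WT and 37.0 and 28.8 in Cpt2 knockout. The lowest −log10 p of any listed peak was 7.11 to 7.82 in the 8 lists. Region 5 (chr12:7919933-7920328), 57300 bp away, was called in 7 libraries, with a −log10 p of 27.1 and 49.9 in WT, 38.9 and 54.7 in Cpt2 knockout, 16.7 in Ppara knockout 1, and 22.7 and 24.2 in double knockout. Region 1 (chr12:7897306-7897730), 79898 bp away, was highest in WT 1 with a fold of 12.5 and had 8.04 in WT 2, 6.47 and 7.85 in Cpt2 knockout, 5.30 and 4.51 in double knockout and no peak in Ppara knockout. Region 11 (chr12:7984352-7984711), inside the gene, lacked a call in WT 1 alone. Its fold was 4.98 in WT 2, 4.64 and 5.21 in Cpt2 knockout, 4.25 and 3.77 in Ppara knockout, and 4.92 and 6.97 in double knockout. Its highest value was in double knockout 2, which lacked the start region. Regions 12 and 13, inside the gene, were called in Ppara-null libraries alone, in 2 and 1 of them.

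Mttp, at chr3:138089855-138143418, had 6 regions, all inside the gene. Region 5 (chr3:138131183-138131603), 12025 bp into the gene from its start, was called in all 8 libraries, and its fold was 12.7 and 10.9 in WT and 11.5 and 11.6 in Cpt2 knockout. In Ppara knockout it was 9.03 and 8.03, and in double knockout 5.62 and 4.69. The 4 Ppara-intact values lay above the 4 Ppara-null ones, and within the latter double knockout was below Ppara knockout. The pileup at the summit, recovered from fold and p, was 100, 112, 110 and 131 tags in the Ppara-intact libraries and 53, 43, 30 and 23 in the Ppara-null ones in the same order of genotypes. Within its own list this peak stood at percentile 79.1 to 90.2 by −log10 p in the Ppara-intact libraries, at 79.7 and 71.7 in Ppara knockout and at 24.4 and 3.62 in double knockout. Region 6 (chr3:138133554-138133863), 9710 bp from the start, had a fold of 5.70 and 7.93 in WT and 6.88 and 5.02 in Cpt2 knockout and no peak in the Ppara-null libraries. Region 4 (chr3:138111002-138111731) was called only in double knockout, with folds of 5.49 and 5.40. Region 3 (chr3:138106910-138107292) was called in both Cpt2 knockout libraries, at folds of 7.35 and 6.10, and in Ppara knockout 1 at 5.23. In each of the 8 lists 1 peak number is skipped in the gap between the last Mttp peak and the next peak past the gene, so a peak at the start of Mttp is not analysed here. The Ppara knockout 2 list also skips 1 number in a gap touching Apoe, where calls in that library may be incomplete.

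Apoa1, at chr9:46228630-46230469, encodes the main protein of high density lipoprotein and had 2 regions, both called in all 8 libraries. Region 1 (chr9:46228450-46228913) holds the start shown in the Apoa1 window. Its fold was 4.84 and 5.18 in WT, 4.87 and 3.94 in Cpt2 knockout, 3.44 and 4.05 in Ppara knockout, and 3.56 and 3.54 in double knockout. The pileup was 173, 176, 185 and 145 tags in the Ppara-intact libraries and 118, 121, 107 and 112 in the Ppara-null ones, without overlap, while the folds overlapped by 1 library. The share of all regions whose pileups do not overlap was not determined, for this or any other region given here. By −log10 p, 76.4% of all regions called in all 8 libraries were higher in every Ppara-intact library. Region 2 (chr9:46230045-46231240) spans the end of the gene. Its fold was 3.03 and 2.72 in WT, 2.83 and 3.19 in Cpt2 knockout, 3.87 and 3.93 in Ppara knockout, and 3.84 and 3.98 in double knockout. Every Ppara-null library was above every Ppara-intact one, with means of 3.90 ± 0.0667 and 2.94 ± 0.207 (SD, n = 4 each). The −log10 p did not overlap either, at 18.3 to 26.1 with Ppara intact and 33.0 to 39.2 without. The pileups were closer, at 101 to 115 and 115 to 137 tags, and the local background was 35.4 to 36.7 tags with Ppara intact and 28.8 to 34.7 tags without.

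A second gene of the cluster showed the same order of folds. Apoa5, at chr9:46268608-46271921, encodes an apolipoprotein that promotes triglyceride clearance. Its region 6 (chr9:46268158-46268813), at the start, had a fold of 3.68 and 4.90 in WT, 3.64 and 4.89 in Cpt2 knockout, 2.87 in Ppara knockout 1, 3.35 and 3.31 in double knockout and no peak in Ppara knockout 2. Region 7 (chr9:46271484-46272409), at the end of the gene and 654 bp before Zpr1, was called in all 8. Its fold was 3.26 and 2.54 in WT, 3.52 and 2.54 in Cpt2 knockout, 3.53 and 4.38 in Ppara knockout, and 3.77 and 3.55 in double knockout, so that the sides did not overlap but met closely, at 3.52 and 3.53. Its −log10 p overlapped, at 18.9 to 45.1 with Ppara intact and 33.7 to 72.5 without. The pileups of region 7 overlapped as well, at 119 to 180 and 130 to 226 tags. Ppara knockout 2, which lacked the start region, had the highest value at the end region. The peak there covered 33.6% to 48.7% of the region with Ppara intact and 79.6% to 99.6% without. Under the requirement that peaks cover at least 50% of a region, it was therefore called in the 4 Ppara-null libraries alone. Counted from the Apoa1 start, Apoa5 ends at 43.291 kb. The peaks of region 7 began past that end with Ppara intact, at 43.322 to 43.451 kb. Without Ppara they began inside the gene, at 42.854 to 42.879 kb. A stronger peak lay next to them on the Zpr1 side, at folds of 6.07 to 6.47 with Ppara intact and 4.81 to 5.34 without.

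The 2 end regions were set against all regions called in every library. Of 11258 such regions, 60% had a higher fold in every Ppara-intact than in every Ppara-null library, and 0.222% had the reverse. Of the 10 at the lipoprotein genes, 4 were of the first kind (Mttp region 5, Apoa4 region 2, Apoa5 regions 1 and 5) and 2 of the second (Apoa1 region 2 and Apoa5 region 7). With any 1 library left out, 10 to 17 regions were counted. Both end regions stayed of the second kind, which was fixed by construction, since leaving out a library cannot undo a complete separation. The first kind then numbered 4 or 5 of 10 or 11 regions, except for 8 of 17 without Ppara knockout 2 (background 60.9%) and 7 of 13 without double knockout 2 (61.7%). This comparison was chosen after the values were seen. By −log10 p the counts were 6 and 1, with backgrounds of 76.4% and 0.329%. Within each list, the ratio of the Apoa1 end region's fold to its start region's fold was 0.626, 0.526, 0.582 and 0.811 in the Ppara-intact libraries and 1.12, 0.972, 1.08 and 1.13 in the Ppara-null ones. For Apoa5 it was 0.885, 0.518, 0.965 and 0.519, against 1.23, 1.12 and 1.07 in the 3 Ppara-null libraries with both peaks. Neither set of fold ratios overlapped between the sides, but these 2 genes were taken because their end regions showed this order, so the ratios are a description. The fold of the end region exceeded that of the start region in 3 Ppara-null libraries for each gene and in no Ppara-intact one. By pileup the Apoa5 end also exceeded the start in Cpt2 knockout 1, at a ratio of 1.06.

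**Figure D3:**
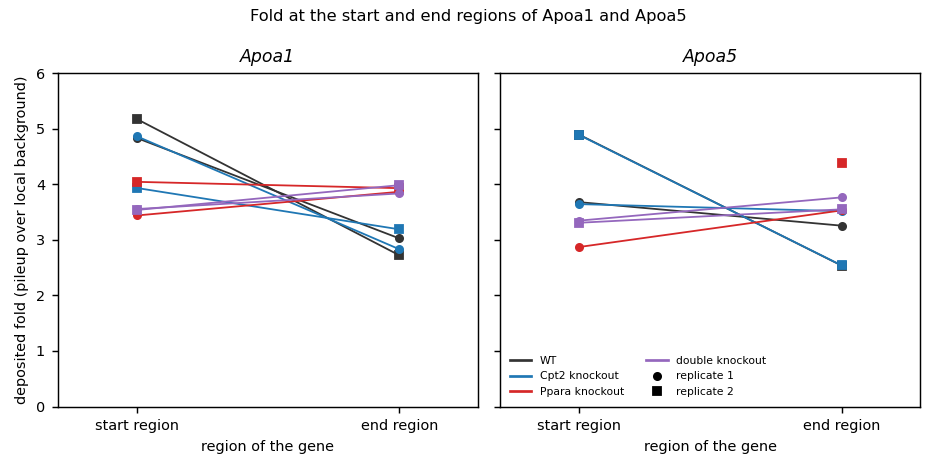
Deposited fold at the start and end regions of Apoa1 (left) and Apoa5 (right), with a line for each library that called both; circles are replicate 1 and squares replicate 2. Lines slope down in the 4 Ppara-intact libraries and are level or slope up in the Ppara-null ones; the single square in the right panel is Ppara knockout 2, which had no peak at the Apoa5 start.

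Between Apoa1 and Apoa5 lie Apoc3, whose product slows the clearance of triglyceride-rich particles, and Apoa4, whose product is found on intestinal and hepatic lipoproteins. Apoc3 (chr9:46233050-46235636) had 1 region, at chr9:46235151-46235930 over its higher-coordinate end. Its fold was 5.52 and 7.89 in WT, 5.47 and 4.95 in Cpt2 knockout, 3.52 in Ppara knockout 2, and 3.48 and 4.15 in double knockout, with no peak in Ppara knockout 1. All 4 Ppara-intact values exceeded the 3 others. Apoa4 (chr9:46240844-46243458) had 5 regions, and region 2 (chr9:46240509-46241328), at its start, was called in all 8 libraries. Its fold was 3.88 and 6.10 in WT, 4.24 and 4.43 in Cpt2 knockout, 2.75 and 3.28 in Ppara knockout, and 2.98 and 2.84 in double knockout, with no overlap between the sides, while the pileups overlapped, at 60 to 116 and 50 to 66 tags. Region 4 (chr9:46243625-46244411), 166 bp past the gene's end, was called in Ppara knockout 1 and both double knockout libraries, at folds of 3.30, 3.31 and 3.54, and in Cpt2 knockout 2 at 2.54. The 1 Ppara-intact value was the lowest of the 4. Not every region past a gene's end showed this order. Apob region 14, 1144 bp past the Apob end, had folds of 4.50 to 5.20 with Ppara intact and of 3.54 to 4.33 in the 3 Ppara-null libraries that called it. Apoe region 1, 1163 bp past the Apoe end, was called in 3 Ppara-intact libraries and 1 Ppara-null library.

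Upstream of Apoa5 lay a group of 5 regions between 7011 and 12042 bp from the gene. Regions 1 (chr9:46256040-46256565) and 5 (chr9:46261188-46261596) were called in all 8 libraries, regions 2 and 4 in 7 and region 3 in 5. The fold of region 1 was 5.91 and 5.53 in WT, 5.27 and 5.26 in Cpt2 knockout, 3.87 and 3.24 in Ppara knockout, and 4.72 and 5.22 in double knockout. The fold of region 5 was 5.69 and 5.68 in WT, 5.52 and 5.05 in Cpt2 knockout, 4.03 and 4.27 in Ppara knockout, and 4.96 and 4.25 in double knockout. For both, the 4 Ppara-intact values were above the 4 others, narrowly so for region 1. The pileup of region 5 was 117, 136, 131 and 116 tags with Ppara intact and 60, 43, 80 and 60 without. These upstream regions kept calls in the Ppara-null libraries while their tag numbers were lower there.

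**Figure D4:**
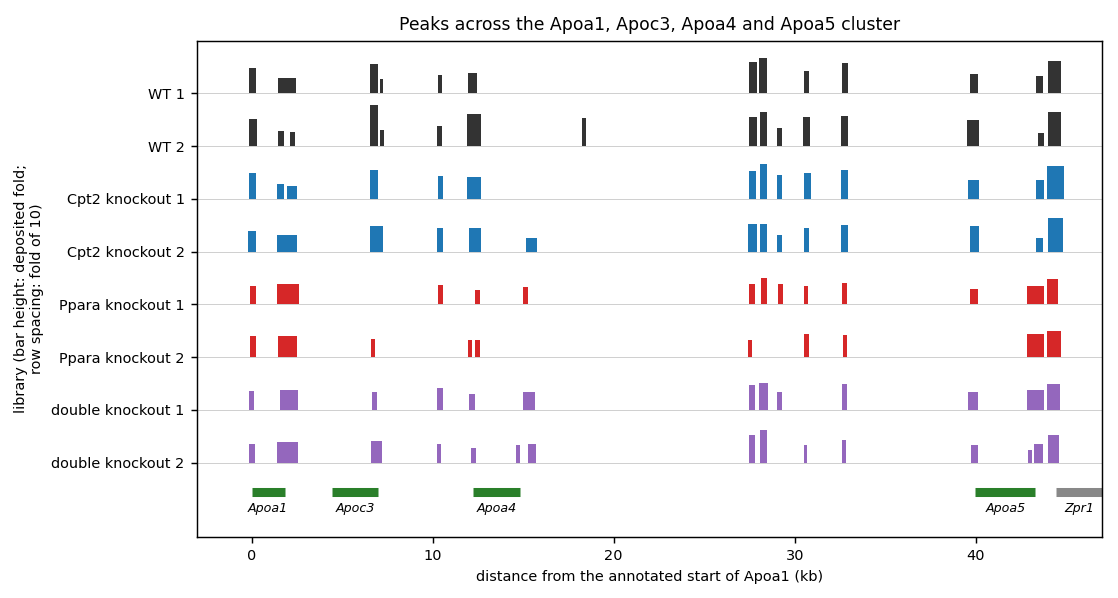
Peaks of the 8 libraries along the cluster of Apoa1, Apoc3, Apoa4 and Apoa5, by distance from the annotated start of Apoa1 in kb; bars span each peak, bar height is its deposited fold and rows are spaced by a fold of 10. Gene spans are drawn below in green (Zpr1, outside the set, in grey). Peaks at the end of Apoa5 cover more in the Ppara-null libraries. Those at the end of Apoa1 are wide in the Ppara-null libraries and also in WT 1 and Cpt2 knockout 2.

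Apoa2, at chr1:171221564-171226379, encodes the second most abundant protein of high density lipoprotein and had 4 regions, all inside the gene. Regions 1 and 2 also overlap Tomm40l and cannot be assigned to either gene. Region 2 (chr1:171222265-171222831) was called in all 8 libraries with a fold of 4.99 and 5.10 in WT, 5.66 and 5.69 in Cpt2 knockout, 4.98 and 3.27 in Ppara knockout, and 4.17 and 5.17 in double knockout. The folds overlapped, but the pileups did not, at 170, 211, 227 and 208 tags with Ppara intact and 105, 89, 92 and 74 without. How many of all regions showed this order of pileups was not determined. By −log10 p, 76.4% of the regions called in all 8 libraries were higher in every Ppara-intact library. Region 4 (chr1:171224859-171225181), over the start shown in the Apoa2 window, had a fold of 3.40 and 3.16 in WT, 4.04 and 3.33 in Cpt2 knockout, 3.19 in Ppara knockout 1, and 3.33 and 3.65 in double knockout, with no peak in Ppara knockout 2. Its values overlapped between Ppara-intact and Ppara-null libraries. Region 1, which begins just past the first start, was called in WT 1, WT 2 and Cpt2 knockout 1 alone.

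Apoe encodes the ligand by which remnant particles are taken up, and Apoc1 encodes a small inhibitor of that uptake, and the genes are neighbours on chromosome 7. Apoe region 4 (chr7:19700904-19701361), which also overlaps Tomm40, had the highest single −log10 p of the 57 regions, 155 in WT 2. The values were 115 and 155 in WT, 152 and 132 in Cpt2 knockout, 48.7 and 30.4 in Ppara knockout, and 118 and 80.5 in double knockout. The Ppara knockout libraries were lowest, while double knockout 1 exceeded WT 1, and in Ppara knockout 2 both Apoa1 regions and Apoa5 region 7 were higher. Apoe region 2 (chr7:19698853-19699295) holds the annotated Apoe start at 19699188. Its fold was 3.44 and 3.54 in WT, 4.13 and 2.77 in Cpt2 knockout, and 3.87 and 3.55 in Ppara knockout. It was 2.98 in double knockout 1, with no peak in double knockout 2. The sides overlapped. Apoc1 (chr7:19689480-19692659) had 6 regions, and only region 1 (chr7:19685345-19685770), 3709 bp away, was called in any Ppara-null library. Its fold was 7.11 and 6.99 in WT, 8.6 and 7.29 in Cpt2 knockout, 5.95 in Ppara knockout 1, and 7.78 and 6.02 in double knockout. The other 5 Apoc1 regions had −log10 p values of 11.7 to 29.9 in the Ppara-intact libraries, and none was called in all 4 of these. Each Ppara-null library called only 35.5% to 44.5% of all consensus regions, and the share of these with no Ppara-null call was not determined.

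Apoh encodes a plasma glycoprotein that binds phospholipid. Region 2 (chr11:108394942-108395485), over the start shown in the Apoh window, had a fold of 10.2 and 11.5 in WT, 10.8 and 11.2 in Cpt2 knockout, 5.29 in Ppara knockout 1, and 7.39 and 5.64 in double knockout, with no peak in Ppara knockout 2. The pileup was 69 to 100 tags with Ppara intact and 28 to 38 in the 3 others, without overlap, an order whose share over all regions was not determined. The other 3 Apoh regions were called in Ppara-intact libraries alone, in 3, 3 and 1 of them. Of the 57 regions 18 had no call in a Ppara-null library. The share over all regions was not determined, and each Ppara-null library called only 35.5% to 44.5% of all consensus regions. These missing calls are therefore not read as particular to the lipoprotein genes.

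At 7 of the 10 genes the local background under the peaks was well above the list medians. The fold is relative to this background, so a pileup of a given height gives a lower fold and a lower −log10 p where the background is high. Over all peaks of a list its median was 6.00 to 7.84 tags, with a lowest value of 4.10 in each library. Under the Apoa1 peaks it was 28.8 to 37.2 tags, at percentile 99.5 to 99.8 of the lists, and the medians were 33.1 for Apoa2, 28.0 for Apoe, 24.9 for Apoc3, 24.2 for Apoa5, 21.2 for Apoa4 and 20.5 for Apoc1. Apob at 6.76, Mttp at 5.55 and Apoh at 5.42 lay near the list medians. At least 20 tags of background lay under 48.6% to 54.8% of the set's peaks in the Ppara-intact libraries, against 4.18% to 6.24% of all peaks, and under 19.2% to 37.5% in the Ppara-null ones, against 0.516% to 1.22%. Fold and background are thus not comparable between, for example, Apoa1 and Apoh. No test was made of this contrast, for which the bound of 20 tags was chosen after the values were seen.

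**Figure D5:**
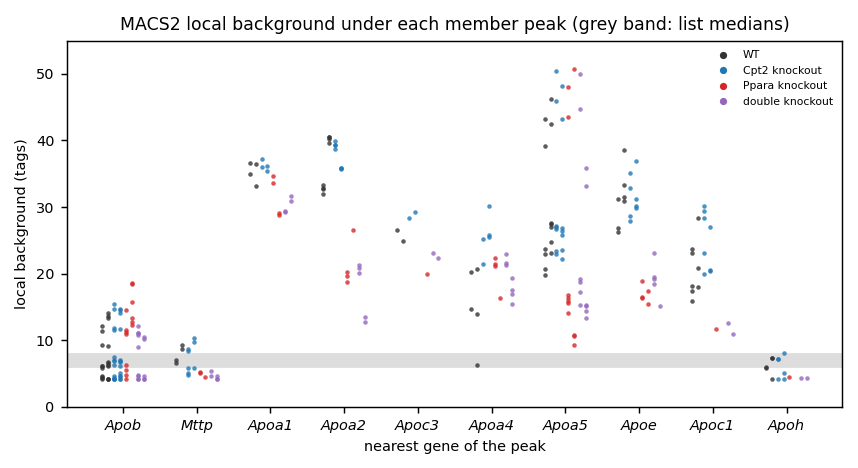
Local background in tags under each peak of the 10 genes, by nearest gene and coloured by genotype; the grey band spans the medians of the 8 lists, 6.00 to 7.84 tags. Peaks at Apoa1, Apoa2, Apoe and Apoa5 reach 37.2 to 50.8 tags, while those at Mttp and Apoh lie near the band.

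Another 46 genes of lipoprotein metabolism encode receptors, lipases, transporters and secretory factors, and also further apolipoproteins, such as that of Apoc2. They were assigned 205 regions, and 44 of the genes had at least 1. Of these regions 22, or 10.7%, were called only in Ppara-intact libraries, against the background of 6.82% and the 3.51% at the apolipoprotein genes and Mttp, a difference that was not tested, and none only in Ppara-null ones. Among the genes with such a region were Abca1, Apoc2, Creb3l3, Dgat2, Lipc, Lipg, Mia2, Saa1, Sar1b, Sec24a, Soat2, Sort1 and Vldlr. Lipc and Lipg, which encode hepatic and endothelial lipase, had 3 such regions each. Sar1b, Sec24a and Mia2 act in the export of large cargo from the endoplasmic reticulum, and each had 1.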

How the data were processed

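ATAC-seq was deposited as 1 peak list for each of 8 libraries. Peaks were called per library with MACS2 2.1.0 on mm10, per the submitters' processing notes, and BWA is listed there without a version. Read filters and any shift of read ends are not given in the sources used here. For each peak the deposited values are a score, a fold (a ratio of pileup to local background), and −log10 p and −log10 q values. A deposited table of consensus positions, per the file headers, holds no counts. The score and summit columns were not used.

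The members and gene lists were chosen with earlier results of these data known. Regions were assigned to the nearest of 21900 protein-coding genes of a RefSeq table (GRCm38.p6), within 100 kb of the gene span, ties counted for the member. Overlap with a peak by 1 bp or more made a region called, and fold and −log10 p are those of its strongest peak. A region was separated when all libraries of one side, and no library of the opposite one, called it. Pileup and background in tags were solved from fold = (pileup + 1)/(background + 1) and the Poisson p, for all 271 member peaks and 99.6% to 100% of all peaks. All 10 members are named, and regions where separated or at a start, and other regions were chosen after their values were seen. The depth is not given as a read total, and calls carry no interval. Alternatives were 50% cover, lists cut to an equal number of peaks, a −log10 q of at least 20, a limit of 10 kb, ties left out and each library left out. The functions were tested on simulated data. Python 3.11.15, NumPy 2.4.6, SciPy 1.17.1, pandas 2.3.3 and matplotlib 3.10.9 were used. Results for some genes of the lists are not reported here.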

Additional observations from a re-analysis of the deposited data

How the results depend on the processing

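The counts of separated regions at the lipoprotein genes depended on list length. In equal-number lists of 18132 peaks the direction turned. There was 1 region by Ppara status (called only in Ppara-null) and 1 for Ppara knockout against WT (only in the knockout). Double knockout against Cpt2 knockout gave 5 (4 only in double knockout), and Cpt2 knockout against WT gave 1 (only in WT). As shares of the 57 regions these were 1.75%, 1.75%, 8.77% and 1.75%, against backgrounds of 1.32%, 5.82%, 5.61% and 1.73% in either direction. The difference in mean regions called per library turned from 14.75 to -4.25. Cutting the lists leaves fewer peaks of the longer ones by construction. With a limit of 10 kb, which leaves fewer regions, the totals were 1 by Ppara status, 5 for Ppara knockout against WT, 5 for double knockout against Cpt2 knockout, 1 for Cpt2 knockout against WT and 1 for double knockout against Ppara knockout, and the difference per library was 9.0. Of the 42 regions left these were 2.38%, 11.9%, 11.9%, 2.38% and 2.38%, against backgrounds of 6.89%, 14.1%, 21%, 4.14% and 3.79%. With peaks limited to a −log10 q of 20 or more, Cpt2 knockout against WT gave 0 regions, and the cause was not tested. The other totals at 50% cover, at this q and without ties stayed within 1.5 times and kept their direction, but at this q the regions differed. By Ppara status and for double knockout against Ppara knockout, none of the reported regions remained. At this q, Ppara knockout against WT gave 17.5% (background 15.4%) and double knockout against Ppara knockout 5.26% (background 2.54%). At 50% cover the same comparisons gave 21.1% (background 17.5%) and 5.26% (background 4.27%). The other comparisons were below the background in both settings.

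With 1 library left out, counts can only stay or rise by construction. They ranged from 2 to 6 by Ppara status (6 without Cpt2 knockout 2) and from 12 to 21 for Ppara knockout against WT (21 without Ppara knockout 1). For double knockout against Cpt2 knockout they ranged from 10 to 17 (14 without Cpt2 knockout 1, 17 without Cpt2 knockout 2 or double knockout 1). For Cpt2 knockout against WT they ranged from 4 to 11 (11 without Cpt2 knockout 1, 4 without WT 1, 6 without WT 2 or Cpt2 knockout 2), and for double knockout against Ppara knockout from 5 to 12 (12 without Ppara knockout 1, 7 and 5 without double knockout 1 and 2, 6 without Ppara knockout 2, then 3 in each direction). The difference in regions called per library ranged from 11.92 to 16.58. Regions called in every library with a higher fold in every Ppara-null library numbered 2 throughout, and those with the reverse 4 to 8, alternatives chosen after seeing the data. No paired analysis was possible because the results are counts of calls that come from no test. Regions whose pileup stayed under the calling limit were not detectable at this depth.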
